A study of Drosophila melanogaster with 9 samples.

Results

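The 31 piRNA clusters on the assembled heterochromatin of Drosophila melanogaster chromosome 3 were followed across 5 testis small RNA libraries. They were taken as all lines of the cluster tables whose names place them on the 3LHet or 3RHet arm, 13 on 3LHet and 18 on 3RHet, of 99 clusters in all. Here they are numbered from the lowest coordinate on each arm, as 3LHet-1 to 3LHet-13 and 3RHet-1 to 3RHet-18. The study set primary spermatocyte stages against spermatogonia. Spermatocyte testes were 1 library from can mutants and 1 from sa mutants, both dissected without their apical tips, and labelled as primary spermatocytes. Spermatogonia testes were 1 library from bam mutants and 1 from bgcn mutants, whole testes labelled as early, mitotically dividing germ cells (gonioblasts). The y w library came from whole testes that hold every stage up to mature sperm. The sources used here give neither the alleles of the 4 mutant stocks nor the age of the males. The 4 libraries of aub and ago3 genotypes were not used here.

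PIWI-interacting RNAs (piRNAs) are small RNAs that guide the Piwi-family proteins Piwi, Aub and Ago3 to transposon transcripts in the gonads of flies. Many are cut from long precursors of piRNA clusters, loci built largely of transposon fragments and often found in the repeat-rich chromatin near centromeres, where 3LHet and 3RHet lie. The gene bam and its partner bgcn end the spermatogonial divisions, and germ cells of their mutants go on dividing. The genes can and sa encode testis-specific relatives of general transcription factor subunits, and germ cells of their mutants stop as primary spermatocytes before meiosis.

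Cluster-mapping reads numbered 21594 (can), 11636 (sa), 20920 (bam), 32654 (bgcn) and 18371 (y w), and every level below is a share of that total unless another scale is named. Of these reads, 3407 (can), 1275 (sa), 3621 (bam), 3590 (bgcn) and 2761 (y w) mapped to the chromosome 3 heterochromatin clusters. Each stage group holds 2 libraries from different mutant stocks, and the tests took the gap between these 2 genotypes as replicate spread. Stage, stock and removal of the apical tips differ together between the groups and cannot be told apart. In whole tissue, fewer cells of a type and less RNA per cell cannot be told apart either. Ranges in brackets after a share are 95% exact binomial intervals of that library and reflect counting error alone. The tables hold no messenger RNA, so the labelled stages could not be checked on marker genes. The longest cluster on X, taken as flamenco, which is known as a piRNA source of gonadal somatic cells, held 8.65% (can), 17.8% (sa), 11.9% (bam), 13.4% (bgcn) and 6.77% (y w) of cluster-mapping reads. The 10 transposons listed as typical of those somatic cells took 2.46% (can), 4.99% (sa), 6.08% (bam), 6.70% (bgcn) and 3.08% (y w) of transposon-mapping reads. Their part in the results below was not tested.

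The clusters are long and thinly covered. Their lengths run from 20.5 kb (3RHet-9, 3RHet:1099062-1119539) to 169.3 kb (3LHet-12, 3LHet:2011004-2180268), with a median of 43.0 kb against 35.9 kb for all 99 clusters. Together they span 1823.5 kb, which is 39.5% of the length of all 99 clusters, but they held only 10.96 to 17.31% of the cluster-mapping reads of a library. Per length, the median over the 31 was 0.527% of reads per 100 kb, averaged over the 5 libraries, against 0.878% for the other 68. Summed over clusters, coverage per 100 kb was 0.865% (can), 0.601% (sa), 0.949% (bam), 0.603% (bgcn) and 0.824% (y w) for the 31. For the 12 clusters of chromosome 2 heterochromatin (2LHet and 2RHet) it was 0.362% (can), 0.349% (sa), 1.10% (bam), 0.525% (bgcn) and 0.419% (y w), lower than the 31 in all but bam. The most densely covered was 3LHet-3 (3LHet:356904-406827, 49.9 kb) at 6.01% per 100 kb. It was followed by 3RHet-16 (3RHet:2178310-2199481, 21.2 kb) at 2.28% and 3RHet-18 (3RHet:2308626-2372457, 63.8 kb) at 2.09%. The sparsest was 3RHet-1 (3RHet:11338-41264, 29.9 kb) at 0.167%. Longer clusters tended to have more reads, with a Pearson correlation of log2 reads with log2 length, over the 31 clusters, of 0.46 in can, 0.38 in sa, 0.41 in bam, 0.56 in bgcn and 0.59 in y w. The 31 points share a library and its depth, and this is a description with no test.

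The summed share of the 31 clusters differed between stages by less than its spread within them. Their summed share was 15.8% (15.3 to 16.3) in can and 10.96% (10.4 to 11.54) in sa, against 17.3% (16.8 to 17.8) in bam and 10.99% (10.66 to 11.34) in bgcn. The means were 13.4 ± 3.41% in spermatocyte testes and 14.2 ± 4.47% in spermatogonia testes (SD, n = 2 each), so the difference of -0.784 percentage points was smaller than the spread within either group. Its sign turned with single libraries, to 1.63 without sa and 2.37 without bam, and it was -3.19 without can and -3.94 without bgcn. The y w testis held 15.0% (14.5 to 15.6). Scale mattered for the sum as well. On the authors' scale it was 2420 (can) and 1650 (sa), both below 3389 (bam) and 3081 (bgcn). The other 68 clusters also lay lower there, at 12920 (can) and 13409 (sa) against 16193 (bam) and 24944 (bgcn). Per 1000 transposon-mapping reads the sum of the 31 overlapped, at 6.557 (can) and 4.852 (sa) against 8.253 (bam) and 6.185 (bgcn). The arms are given apart, and the difference between them was not tested. The 13 clusters of 3LHet summed to 11.5% (can) and 6.76% (sa) in spermatocyte testes, against 8.91% (bam) and 5.53% (bgcn) in spermatogonia testes, and the groups overlapped. The 18 clusters of 3RHet summed to 4.32% (can) and 4.19% (sa), against 8.40% (bam) and 5.47% (bgcn), with both spermatocyte values below both spermatogonia values. The 12 clusters of chromosome 2 heterochromatin also lay lower, at 2.23% (can) and 2.15% (sa) against 6.80% (bam) and 3.24% (bgcn). The 17 clusters named on U lay higher, at 23.6% (can) and 18.5% (sa) against 5.56% (bam) and 5.96% (bgcn). The 3RHet difference of -2.68 percentage points was -1.21 without bam and -4.15 without bgcn. Without 3LHet-3, left out after its values were seen, 3LHet also lay lower, at 4.57% (can) and 3.22% (sa) against 8.26% (bam) and 4.66% (bgcn), where can and bgcn were within counting error of each other.

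**Figure D1:**
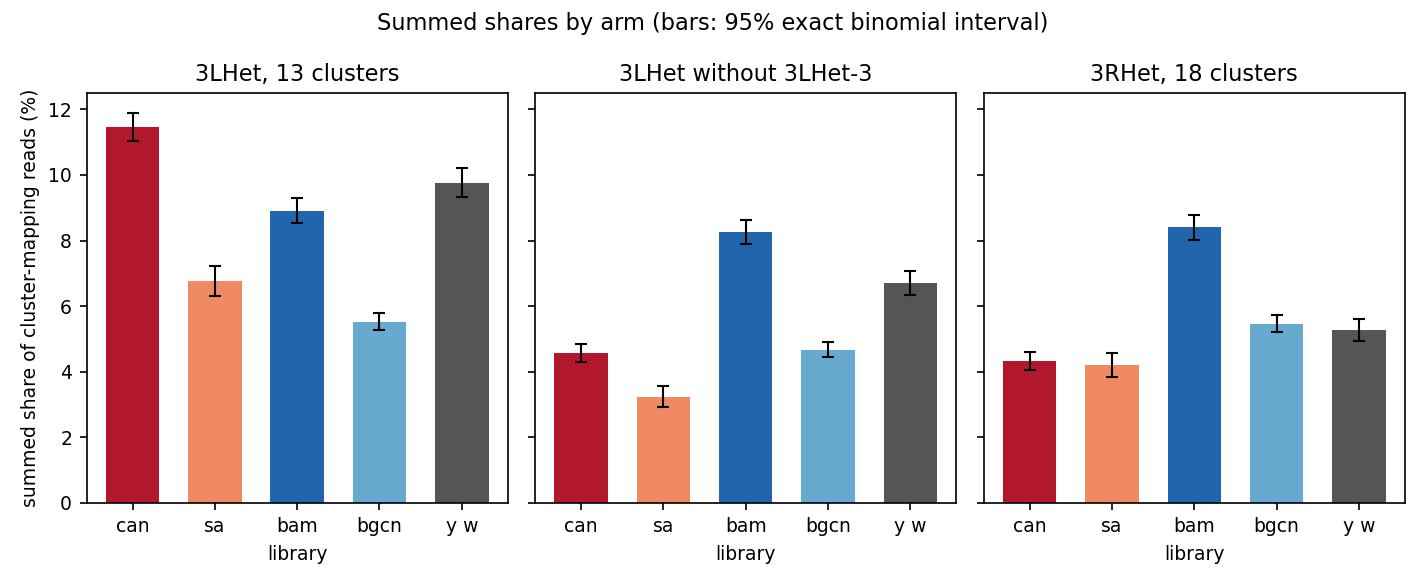
Summed share of cluster-mapping reads (%) for the 3LHet clusters, the 3LHet clusters without 3LHet-3, and the 3RHet clusters, with 1 bar per library and 95% exact binomial intervals. On 3RHet, can and sa stand at 4.32% and 4.19%, below bam (8.40%) and bgcn (5.47%), and on 3LHet sa (6.76%) stands above bgcn (5.53%) with 3LHet-3 but below it without (3.22% and 4.66%).

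Cluster by cluster, the mean share was lower in spermatocyte testes for 22 of the 31, as for 76 of all 99. Both spermatocyte libraries lay below both spermatogonia libraries for 13 of the 31 clusters and above them for 3, and the groups overlapped for 15. Over all 99 clusters the share was lower without overlap for 54.5% and higher for 13.1%. On the scale of trimmed means of M values (TMM), which sets the typical cluster level between libraries, the counts were 9 lower and 8 higher, against 33.3% and 26.3% of all 99. On the authors' own scale they were 20 lower and 2 higher, against 71.7% and 7.07%. Per transposon-mapping read they were 17 lower and 2 higher, against 63.6% and 10.1%. The number of lower clusters thus follows the scale chosen, while the 2 higher ones on the authors' scale include 3LHet-3, described next.

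**Figure D2:**
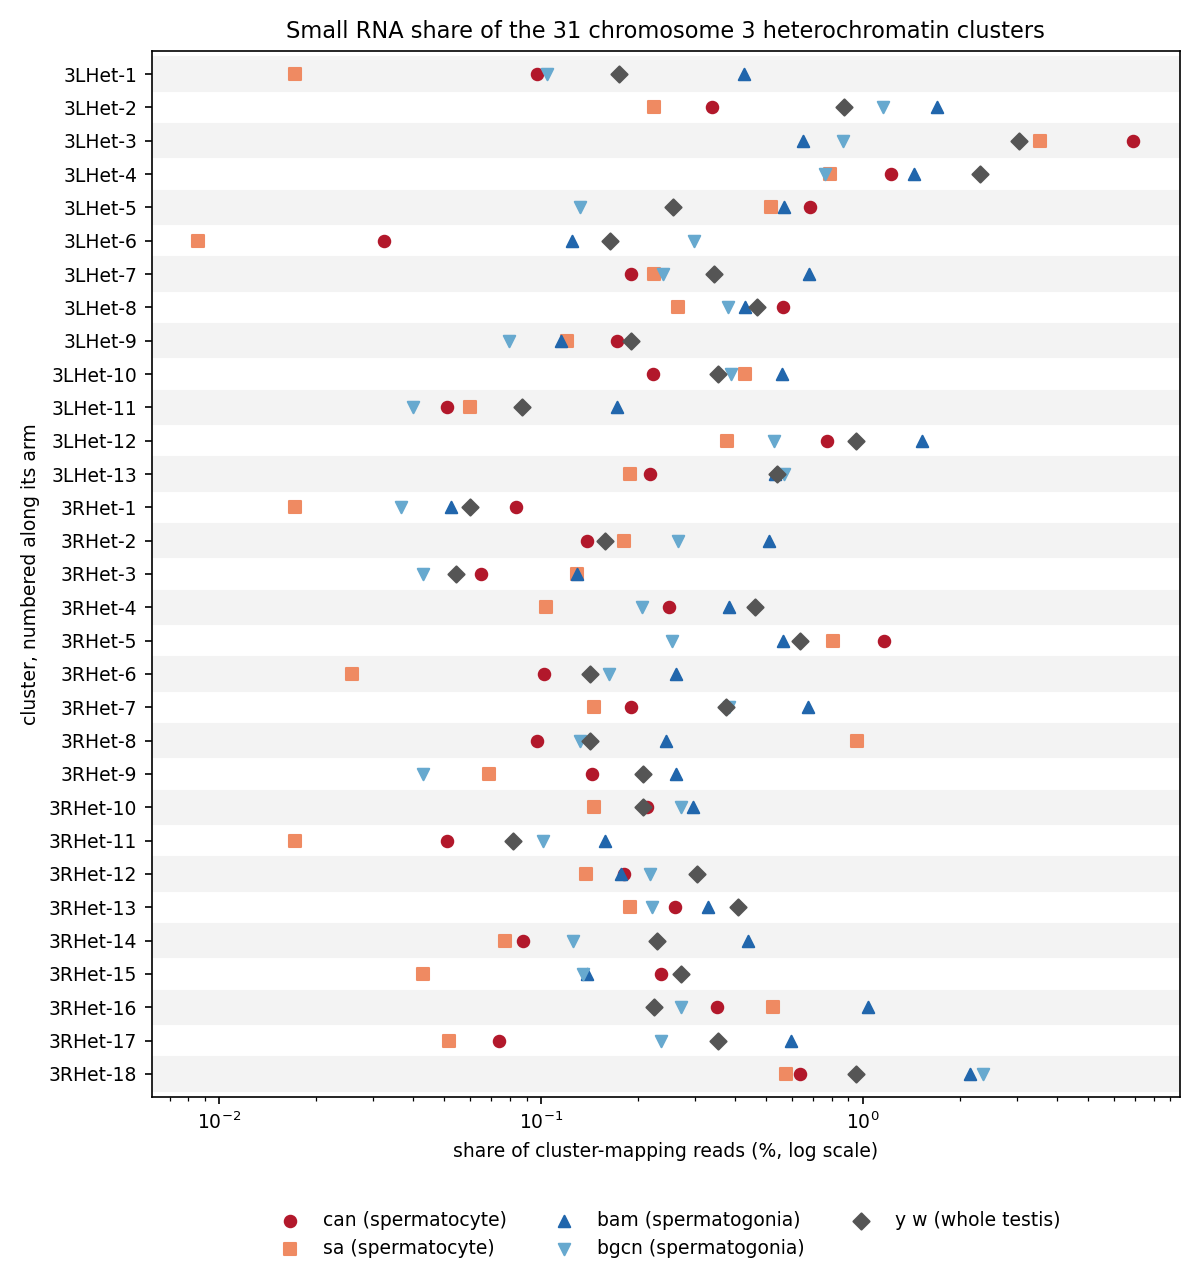
Share of cluster-mapping reads (%, log axis) of each of the 31 clusters in the 5 libraries, with clusters in order along 3LHet and 3RHet. 3LHet-3 stands at 6.89% in can and 3.54% in sa, and 3RHet-18 is the highest of the 31 in bam (2.15%) and bgcn (2.36%).

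Among the 31, 1 cluster dominated in spermatocyte testes. 3LHet-3 had 1488 reads in can and 412 in sa, against 136 in bam and 282 in bgcn, and 561 in y w. As shares these were 6.89% (6.56 to 7.24) in can and 3.54% (3.21 to 3.89) in sa, against 0.650% (0.546 to 0.769) in bam and 0.864% (0.766 to 0.970) in bgcn. Both spermatocyte values lay above both spermatogonia values, and y w, at 3.05% (2.81 to 3.31), lay between the groups. The ratio of group means was 6.89. Larger ratios occurred outside the 31, such as 14.0 for U:4015849-4029971 and 255 for U:8795936-8797237. The latter had 4 reads in bam and 3 in bgcn. Of the reads of all 31 clusters, 3LHet-3 gave 43.7% in can and 32.3% in sa, against 3.76% in bam and 7.86% in bgcn, and 20.3% in y w. It ranked first among the 31 in can, sa and y w, 8 in bam and 3 in bgcn. Its log2 fold change, spermatocyte over spermatogonia, was 3.58 (SE 0.88) after TMM scaling, with an adjusted p of 0.0905 in edgeR's quasi-likelihood test, so it did not pass the threshold of 0.05. The value was positive under all 12 alternatives, from 2.11 to 4.28, with adjusted p-values from 1.57e-05 to 0.234, and passed under 5 of them. Those 5 were DESeq2 (3.66, adjusted p = 1.57e-05), library totals (2.78, 0.00334), the authors' factors (2.11, 0.0216), transposon-mapping reads as library size (2.48, 0.0123) and the fit with y w as a group of its own (3.52, 0.0197). A pass did not always mean a larger difference against its SE. Before adjustment the edgeR p was 0.00489 after TMM scaling, at an SE of 0.88. In the fit with y w it was 0.00159, although the SE was larger, at 1.10. With the authors' factors it was 0.0102, higher than after TMM scaling, yet the adjusted p was lower.

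**Figure D3:**
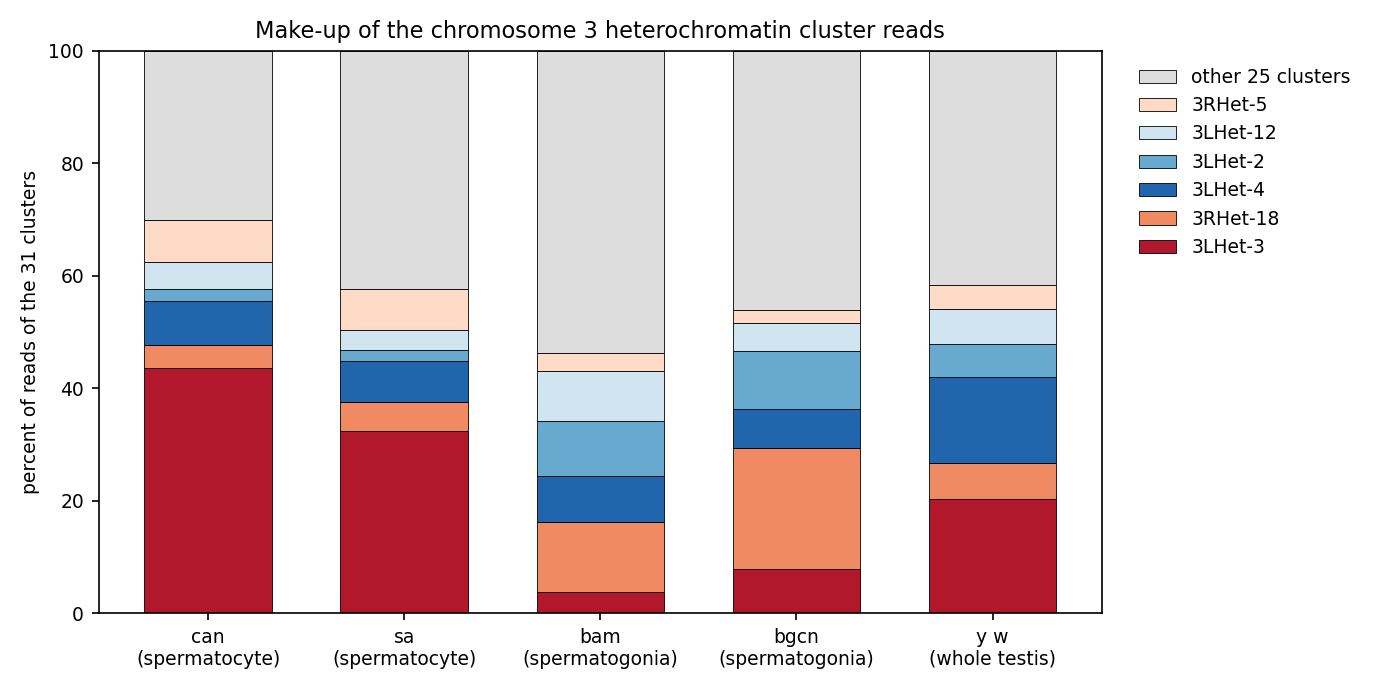
Percent of the reads of the 31 clusters that came from each of the 6 with the highest mean share, and from the other 25, in each library. 3LHet-3 makes up 43.7% in can and 32.3% in sa, against 3.76% in bam, 7.86% in bgcn and 20.3% in y w.

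The 3 leading clusters of a library held 58.8% (can) and 48.4% (sa) of the reads of the 31, against 30.96% (bam) and 39.78% (bgcn), and 42.1% in y w. The effective number of clusters, the inverse of the summed squared shares, was 4.70 in can and 7.36 in sa, against 17.2 in bam and 12.1 in bgcn, and 11.5 in y w. Both measures include 3LHet-3. Without it, in an alternative chosen after its values were seen, the effective number was 14.5 in can and 14.5 in sa, against 16.4 in bam and 11.1 in bgcn, and 13.9 in y w, and the groups overlapped. Among the 31, the leading cluster of both spermatogonia libraries was 3RHet-18, at 12.4% of the reads of the 31 in bam and 21.5% in bgcn.

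No cluster of the 31 passed the edgeR test after TMM scaling, where 1.01% of all 99 clusters did. Before adjustment, 5 of the 31 were higher and 3 lower at p under 0.05, against 15.2% higher and 9.09% lower of all 99. With DESeq2, 4 were higher and 2 lower, against 13.1% and 4.04% of all 99. With the authors' factors, 1 was higher and 12 lower, against 3.03% and 48.5% of all 99. With transposon-mapping reads as library size, 1 was higher and 9 lower, 10 in all, against 4.04%, 35.4% and 39.4% of all 99. With library totals, 1 was higher and 3 lower, against 4.04% and 9.09% of all 99. In the fit with y w as a group of its own, 4 were higher and 1 lower, against 11.1% and 4.04% of all 99. The median log2 fold change of the 31 was 0.27 after TMM scaling, beside -0.11 for all 99. The median was -0.65 beside -0.93 with library totals and -1.26 beside -1.58 with the authors' factors. The sign of the median followed the scale. Without bgcn its gap to all clusters tested nearly closed, at 0.13 beside 0.11 after TMM scaling. The values were -1.16 beside -1.18 with library totals and -1.53 beside -1.54 with the authors' factors. These fits tested only 86 clusters, 30 of the 31 among them, so their medians cover another set than the 99. The fit without bam also tested 86, with 0.29 beside 0.14 after TMM scaling. Single libraries also moved the counts of those that passed. With the authors' factors the 13 became 0 without can, 0 without sa, 4 without bam and 10 without bgcn, and with library totals the 4 became 0, 1, 0 and 6. After TMM scaling the count was 1 without can, the cluster being 3RHet-8, and 0 without each of the other 3. The TMM factors ran from 0.686 (sa) to 1.84 (bam).

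**Figure D4:**
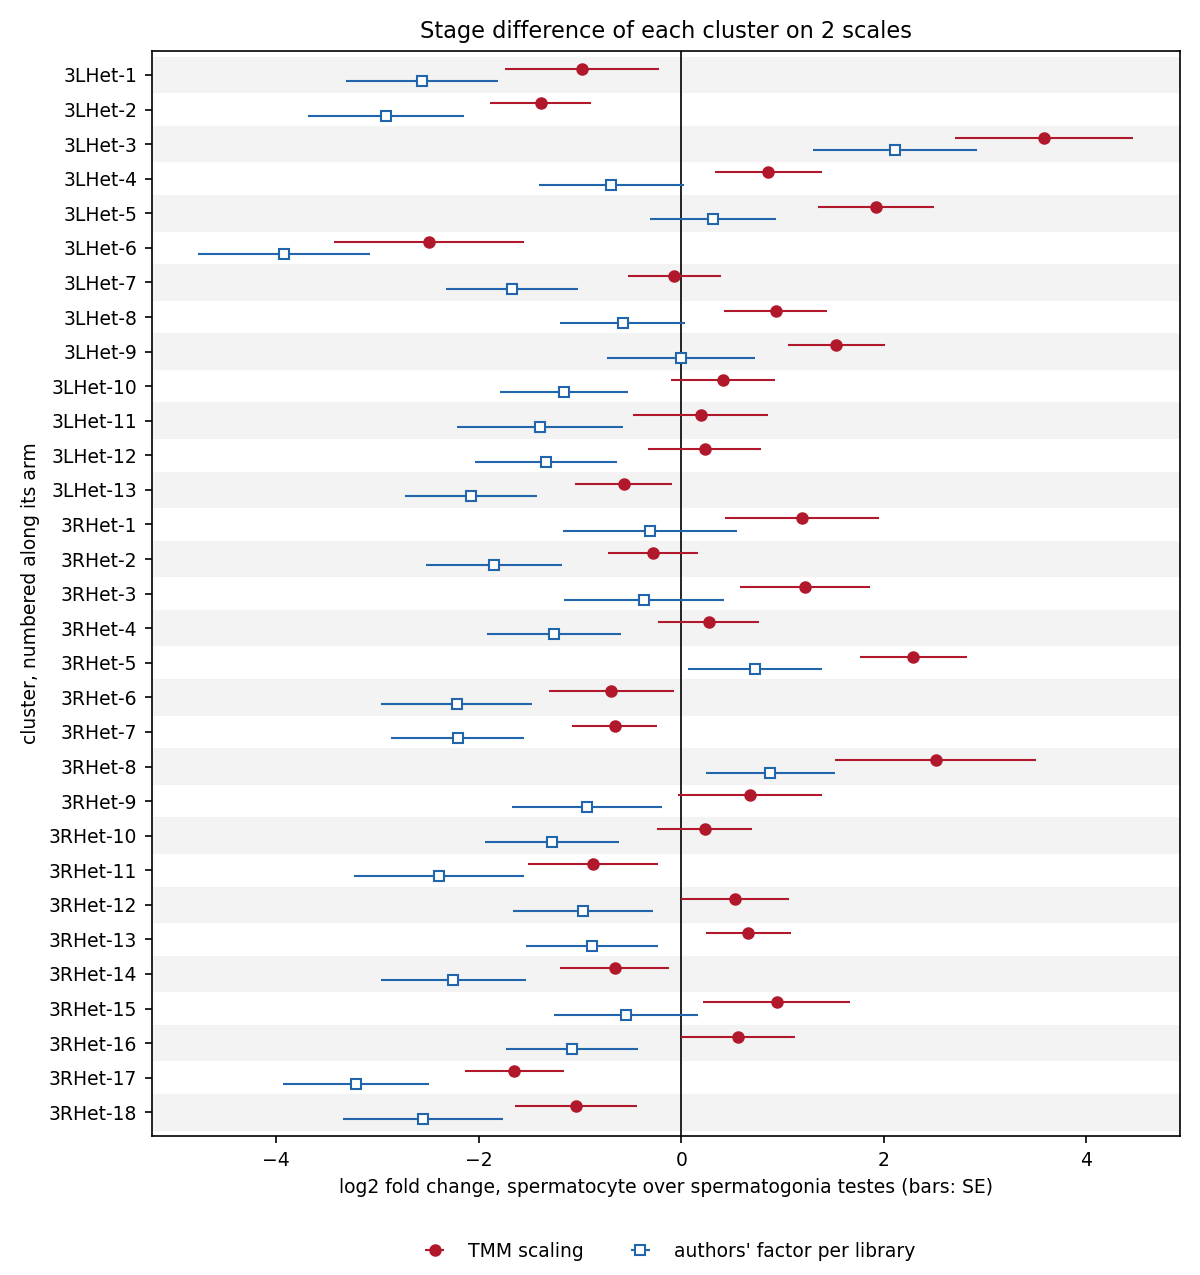
Log2 fold change of each of the 31 clusters, spermatocyte over spermatogonia testes, after TMM scaling (filled circles) and with the authors' factors (open squares), with bars for the SE. The median is 0.27 after TMM scaling and -1.26 with the authors' factors, and 3LHet-3 is to the right of 0 on both, at 3.58 and 2.11.

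A further 4 clusters stood at the high end of the stage difference beside 3LHet-3, and none passed the edgeR test. 3RHet-5 (3RHet:617644-658939) held 1.16% in can and 0.808% in sa, against 0.564% in bam and 0.254% in bgcn, with 0.637% in y w. The groups did not overlap, and its log2 fold change was 2.29 ± 0.53 (SE; adjusted p = 0.0905 in edgeR). It was positive under all 12 alternatives, from 0.73 to 2.36, and passed with DESeq2 (2.36, adjusted p = 0.000311) and in the fit with y w (2.23, 0.0422). With library totals it was 1.27 (0.180), with transposon-mapping reads 1.03 (0.236) and with the authors' factors 0.73 (0.339). 3LHet-5 (3LHet:660546-687580) held 0.685% in can and 0.516% in sa, against 0.569% in bam and 0.132% in bgcn, with 0.256% in y w. By share the value of bam lay between those of can and sa, whereas the log2 fold change after TMM scaling was 1.92 (SE 0.57, edgeR adjusted p = 0.122). It passed with DESeq2 (1.98, adjusted p = 0.00907) and in the fit with y w (1.86, 0.0423), but was 0.79 with library totals (0.429), 0.58 with transposon-mapping reads (0.463) and 0.31 with the authors' factors (0.661). 3LHet-9 (3LHet:1166304-1227110), a sparse cluster, had 37 reads in can and 14 in sa, against 24 in bam and 26 in bgcn, and 35 in y w. As shares these were 0.171% (can) and 0.120% (sa), against 0.115% (bam) and 0.0796% (bgcn), and the gap between sa and bam was within their counting error. Its log2 fold change was 1.53 ± 0.48 (SE; adjusted p = 0.136 in edgeR), and it passed with DESeq2 alone (1.61, adjusted p = 0.0393). On the authors' scale it was 0.00.

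The high value of 3RHet-8 (3RHet:1029684-1067037) rested on 1 library. It had 111 reads in sa and 21 in can, against 51 in bam and 43 in bgcn, and 26 in y w. Its share was 0.954% (0.785 to 1.15) in sa but 0.0972% (0.0602 to 0.149) in can, below bam (0.244%) and within counting error of bgcn (0.132%). The log2 fold change was 2.51 ± 0.99 (SE; adjusted p = 0.174 in edgeR), was 3.36 without can (adjusted p = 0.00709) and -0.13 without sa (adjusted p = 0.926). In sa it was the second cluster of the 31, with 8.71% of their reads, against 0.616% in can. The edgeR fit with y w gave an adjusted p of 0.00892 (log2 fold change 2.31, SE 0.66). There y w is a group of its own and adds no spermatocyte library. The lower p therefore says nothing about the gap between can and sa.

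At the low end stood the 5 clusters with the most negative log2 fold changes of the 31 after TMM scaling. By share, each had both spermatocyte libraries below both spermatogonia libraries, as did 54.5% of all 99 clusters. After TMM scaling 3LHet-1 overlapped, with can above bgcn. 3LHet-2 (3LHet:238123-332969) had 73 reads in can and 26 in sa, against 354 in bam and 375 in bgcn, and 160 in y w. Its shares were 0.338% (can) and 0.223% (sa), against 1.69% (bam) and 1.15% (bgcn), with y w between the groups at 0.871%. The log2 fold change was -1.39 ± 0.50 (SE; adjusted p = 0.160 in edgeR), and it passed with library totals (-2.33, 0.0268), transposon-mapping reads (-2.59, 0.00870) and the authors' factors (-2.92, 0.00172). 3RHet-18 led the 31 in both spermatogonia libraries. It had 137 reads in can and 67 in sa, against 449 in bam and 771 in bgcn, and 174 in y w. Its shares of 0.634% (0.533 to 0.750) in can and 0.576% (0.447 to 0.731) in sa were alike, and lay below 2.15% (1.95 to 2.35) in bam and 2.36% (2.20 to 2.53) in bgcn. The log2 fold change was -1.04 ± 0.60 (SE; adjusted p = 0.357 in edgeR), and it passed with transposon-mapping reads (-2.18, 0.0212) and the authors' factors (-2.55, 0.00485). It was -0.53 without bgcn and -1.58 without bam. 3RHet-17 (3RHet:2281391-2308526), its immediate neighbour, had 16 reads in can and 6 in sa, against 125 in bam and 77 in bgcn, and 65 in y w. Its shares were 0.0741% (can) and 0.0516% (sa), against 0.598% (bam) and 0.236% (bgcn). The log2 fold change was -1.65 ± 0.49 (SE; adjusted p = 0.122 in edgeR), and 4 of the 12 alternatives passed, among them DESeq2 (-1.58, adjusted p = 0.0414) and the authors' factors (-3.21, 0.000302).

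The other 2 of these 5 had very few reads in sa. 3LHet-6 (3LHet:717136-744867) had 7 reads in can and 1 in sa, against 26 in bam and 97 in bgcn, and 30 in y w. The share in sa was 0.0374 times that of the pooled spermatogonia reads (95% exact interval 0.000940 to 0.212). This interval reflects counting error alone and leaves out the spread between libraries, where bam held 0.124% and bgcn 0.297%. Its log2 fold change of -2.49 ± 0.94 (SE; adjusted p = 0.166 in edgeR) was the most negative of the 31, and it passed under 5 of the 9 alternatives that tested it, with values from -3.92 to -2.11. It was -3.79 without can, and without bam or bgcn it was not tested for low counts. 3LHet-1 (3LHet:163582-206577) had 21 reads in can and 2 in sa, against 89 in bam and 34 in bgcn, and 32 in y w. The share in sa was 0.0749 times that of the pooled spermatogonia reads (0.00897 to 0.276, counting error alone), where bam held 0.425% and bgcn 0.104%. In can the share of 0.0972% was close to the 0.104% of bgcn, and the log2 fold change was -0.98 ± 0.76 (SE; adjusted p = 0.438 in edgeR). It passed with the authors' factors (-2.56, 0.00393) and transposon-mapping reads (-2.32, 0.0190). Single libraries moved it to -0.38 without bam, -0.50 without sa, -1.50 without bgcn and -2.78 without can.

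A further 3 of the 8 clusters with the highest mean share overlapped between the stages by share. 3LHet-4 (3LHet:495578-629871) had 264 reads in can and 92 in sa, against 301 in bam and 248 in bgcn. Its shares of 1.22% (can) and 0.791% (sa) interleaved with 1.44% (bam) and 0.759% (bgcn). y w stood above all 4, with 425 reads or 2.31% (2.10 to 2.54). 3LHet-12, the longest of the 31, held 0.773% (can) and 0.378% (sa), against 1.52% (bam) and 0.530% (bgcn), with 0.953% in y w, and bam was the highest library. 3RHet-16 held 0.352% (can) and 0.524% (sa), against 1.04% (bam) and 0.273% (bgcn), and here y w, at 0.223%, lay below all 4. The log2 fold changes of these 3 were 0.86 (SE 0.53), 0.23 (SE 0.56) and 0.56 (SE 0.56) after TMM scaling, with edgeR adjusted p-values of 0.367, 0.751 and 0.520. Each of the 3 had a negative value with the authors' factors, at -0.69, -1.34 and -1.08, and none passed under any alternative. The levels of 3LHet-4 did not overlap after TMM scaling, where spermatocyte testes were higher, nor on the authors' scale, where they were lower. 3LHet-12 was also lower without overlap on the authors' scale, and 3RHet-16 overlapped on both.

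The 2 libraries of a stage differed from each other as well. Over the 31 clusters the median absolute log2 ratio of shares was 0.597 between can and sa and 0.889 between bam and bgcn, beside 0.582 and 0.918 over all 99. The share was higher in can than in sa for 24 of the 31 and higher in bam than in bgcn for 26 of the 31, against 64 and 75 of all 99. Among clusters with at least 30 reads in 1 of the 2 libraries, the widest gaps between can and sa were those of 3RHet-8 (ratio 0.102), 3RHet-15 (5.50) and 3RHet-4 (2.42). 3RHet-15 (3RHet:2033725-2108757) had 51 reads in can and 5 in sa, against 29 in bam and 44 in bgcn, and 50 in y w. 3RHet-4 (3RHet:533743-579880) had 54 reads in can and 12 in sa, against 80 in bam and 67 in bgcn, and 85 in y w. In both, sa was the lowest of the 5 libraries. Between bam and bgcn the widest were those of 3RHet-9 (6.13), 3LHet-11 (4.32) and 3LHet-5 (4.32). 3RHet-9 had 31 reads in can and 8 in sa, against 55 in bam and 14 in bgcn, and 38 in y w. 3LHet-11 (3LHet:1875500-1903361) had 11 reads in can and 7 in sa, against 36 in bam and 13 in bgcn, and 16 in y w. In both, bam had the most reads. After TMM scaling these 4 clusters had log2 fold changes between stages of 0.94 (3RHet-15), 0.27 (3RHet-4), 0.68 (3RHet-9) and 0.19 (3LHet-11), with edgeR adjusted p-values from 0.438 to 0.840. The pattern over the clusters was nonetheless closer within a stage than between stages. The Pearson correlation of log2 shares over the 31 clusters was 0.81 between can and sa and 0.80 between bam and bgcn, and ran from 0.54 to 0.62 for the 4 pairs across stages. These points share the table's clusters and the depth of 2 libraries, and the values carry no test.

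The y w testis mostly lay inside the range of the 4 stage libraries, with 24 of the 31 within it, 6 above and 1 below. Over all 99 clusters 21.2% lay outside, 11 above and 10 below. Those above were 3LHet-4, 3LHet-9, 3RHet-4, 3RHet-12, 3RHet-13 and 3RHet-15, and 3RHet-16 was below. For 6 of these 7 the interval of y w overlapped that of the nearest stage library, the exception being 3LHet-4. The widest of the 6 gaps above, in percentage points, was that of 3LHet-4, at 1.44% in bam, the highest stage library, and 2.31% in y w. For 3RHet-4 the values were 0.382% in bam and 0.463% in y w. The correlation of log2 shares over the 31 clusters was 0.85 between can and y w, 0.67 between sa and y w, 0.75 between bam and y w and 0.83 between bgcn and y w.

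Neighbouring clusters could lie far apart in their stage difference. 3LHet-3, with a ratio of group means of 6.89, lies 23934 bases from 3LHet-2, whose ratio is 0.198, and 88750 bases from 3LHet-4, whose ratio is 0.916. 3LHet-5 (1.71) and 3LHet-6 (0.0973), which lie 29555 bases apart, also differ. A further 3 pairs lie only 99 bases apart. Their ratios were 0.562 and 0.371 for 3LHet-12 and 3LHet-13, 0.694 and 0.631 for 3RHet-9 and 3RHet-10, and 0.151 and 0.269 for 3RHet-17 and 3RHet-18. Both ratios were below 1 in 13 of all 29 neighbouring pairs, these 3 among them. After TMM scaling the log2 fold changes were 0.23 and -0.57 for 3LHet-12 and 3LHet-13, 0.68 and 0.23 for 3RHet-9 and 3RHet-10, and -1.65 and -1.04 for 3RHet-17 and 3RHet-18. These are descriptions over neighbouring loci that may share repeats, and the sources used here do not say how reads matching several loci were counted.

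The remaining 14 clusters held mean shares of 0.05 to 0.422% and had between 2 and 185 reads in a library. For 8 of them both spermatocyte libraries lay below both spermatogonia libraries, for 6 the groups overlapped and for 0 they lay above, beside 54.5% lower and 13.1% higher of all 99. The 4 on 3LHet were 3LHet-7 (3LHet:773130-897972), 3LHet-8 (3LHet:992060-1090427), 3LHet-10 (3LHet:1402377-1557939) and 3LHet-13 (3LHet:2180368-2230834). Of these, 3LHet-13, singled out after its values were seen, held 0.218% (can) and 0.189% (sa), against 0.531% (bam) and 0.567% (bgcn), and y w, at 0.539%, was close to the spermatogonia libraries. The 10 on 3RHet were 3RHet-1, 3RHet-2 (3RHet:107055-154719), 3RHet-3 (3RHet:185301-208455), 3RHet-6 (3RHet:832070-864794), 3RHet-7 (3RHet:889003-925442), 3RHet-10 (3RHet:1119639-1162411), 3RHet-11 (3RHet:1195593-1225067), 3RHet-12 (3RHet:1388385-1472907), 3RHet-13 (3RHet:1599833-1675840) and 3RHet-14 (3RHet:1775508-1799907). Also singled out after their values were seen, 3RHet-7 had 41 reads in can and 17 in sa, against 141 in bam and 125 in bgcn, and 69 in y w. 3RHet-2 had 30 reads in can and 21 in sa, against 107 in bam and 87 in bgcn, and 29 in y w. The y w share of 3RHet-2, 0.158%, lay between can (0.139%) and sa (0.180%). After TMM scaling, the 14 had log2 fold changes of -0.87 to 1.22, 7 positive and 7 negative, with edgeR adjusted p-values from 0.315 to 0.905. With the authors' factors and edgeR, 7 of these 14 passed as lower, beside 48.5% of all 99.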

How the data were processed

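Small RNA libraries (TruSeq, per the labels' protocols) came from hand-dissected testes, and the cluster tables of 5 of the 9 were used. The authors deposited raw read counts per cluster and per transposon, and normalised reads, a signal equal to the raw count times 1 factor per library, per the file headers and values. The bgcn column was handled under the heading of estimated counts because a stray ratio lies below its deposited total, and its 99 cluster lines are whole numbers that needed no rounding. Bowtie 1 and DESeq2 are named without a role in the submitters' processing notes. Not given in the sources used here were the genome build, read lengths and the treatment of reads with several positions. Cluster names are kept as deposited, with no genes or sequences assigned.

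The 31 clusters, the lists and the tests were chosen with earlier results of these data known. Shares are raw counts over the cluster-mapping total of 11636 to 32654 reads per library. Stages were compared in edgeR 4.0.16 (R 4.3.3; quasi-likelihood test, TMM scaling, at least 10 counts in at least 2 libraries) over all 99 clusters, with Benjamini-Hochberg adjustment and a threshold of 0.05. The fit held can, sa, bam and bgcn, and its code was tested on simulated data. Alternatives were DESeq2 1.42.0, other library sizes, other count filters, y w as a further group and each library left out, where the lone library of a stage was assumed to vary like the other stage. The named clusters were any past the threshold, the 8 with the highest mean share, the 5 largest fold changes each way, the 3 most densely covered, the longest and shortest, and the 3 widest ratios within each stage among clusters with at least 30 reads in 1 of its 2 libraries.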

Additional observations from a re-analysis of the deposited data

How the results depend on the processing

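No paired analysis was possible because the labels give no replicate numbers and each library of a stage is another mutant. All 99 clusters passed the filter on low counts, so the fit without it repeats the fit used and could not differ. It is nonetheless counted among the alternatives of each named cluster. The single cluster of 99 past the threshold after TMM scaling became 17 with DESeq2, 13 with library totals, 51 with the authors' factors, 39 with transposon-mapping reads, 15 with y w added and 2 with a minimum of 30 counts. It became 0 to 3 with 1 library left out, and, in fits chosen after the data were seen, 0 to 34 (authors' factors, 14 without bam) and 1 to 25 (library totals, with 2 and 6 between). Among the 31 clusters the count of 0 became 6, 4, 13, 10 and 5 in the same order without the last. It became 0 to 1 with 1 library left out, 0 to 10 with the authors' factors and 0 to 6 with library totals. The median log2 fold change of the 31 became -0.65 with library totals, -1.26 with the authors' factors and -0.93 with transposon-mapping reads, and ran from -0.03 to 0.29 with 1 library left out. The cause of these moves was not tested.

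Of 199 alternative values for the 17 named clusters, 144 kept direction and side of the threshold, 28 newly passed it and 27, in 8 clusters, turned sign without passing. With library totals, the authors' factors and transposon-mapping reads in turn, 3LHet-4 gave -0.12, -0.69 and -0.37, and 3LHet-11 gave -0.91, -1.40 and -1.12. In that order 3LHet-12 gave -0.82, -1.34 and -1.06, and 3RHet-4 gave -0.70, -1.26 and -0.96. 3RHet-9 gave -0.47, -0.93 and -0.68, and 3RHet-16 gave -0.58, -1.08 and -0.78. 3RHet-15 gave -0.55 and -0.22 on the last 2 scales. With 1 library left out, 3LHet-11 ran from -0.36 (bgcn) to 0.83, with -0.11 (sa), and 3LHet-12 from -0.35 (can) to 0.49, with -0.12 (bgcn). 3RHet-4 ran from -0.49 (can) to 0.59, 3RHet-15 from -0.75 (can) to 1.51 and 3RHet-8 from -0.13 (sa) to 3.36.

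The difference in summed share, spermatocyte minus spermatogonia testes, was -0.784 percentage points for the 31 clusters and -5.24 without 3LHet-3. It was 1.89 for 3LHet and -2.57 without 3LHet-3, a choice made after the data were seen. For 3RHet it was -2.68, became -5.43 with the 5 largest other clusters left out of the total, and was -0.171 per 100 transposon-mapping reads, which is another scale. With those 5 clusters left out of the total, the difference was 4.61 for 3LHet and -0.819 for the 31. The smaller total raises every share, so the values with it are on another scale too. With 1 library left out, it ran from -3.94 to 2.37 for the 31, from -0.453 (without can) to 4.24 for 3LHet and from -4.15 to -1.21 for 3RHet. Depth limits the sa library most, where 10 of the 31 clusters had under 10 reads.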
